A study of Mus musculus with 2 samples.

Results

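The genes described here are 45 mouse genes of fatty acid and glucose energy metabolism, out of 21627 protein-coding genes on the autosomes and X. They were taken by name, and all 45 were matched to a span in the RefSeq gene table of GRCm38.p6, the same build as mm10. A peak was counted at a gene when its summit, the position of highest signal, lay inside the span or within 10 kb of either end. The peaks mark DNA recovered with the vitamin D receptor (VDR) by chromatin immunoprecipitation and sequencing. There was 1 sample of left ventricle of E16.5 embryos from a mother on a normal diet, and 1 from a mother on a vitamin D deficient diet. No other treatment, strain, sex or number of pooled embryos is given in the sources used here. A peak list measures no expression, so the labelled tissue could not be checked against marker genes.

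VDR is a nuclear receptor that pairs with retinoid X receptors and binds DNA, classically at 2 half-sites repeated in the same direction with 3 bases between them. The fetal heart relies largely on glucose and lactate for energy, and turns to fatty acids after birth. Fatty acids enter the cell through transporters, are joined to coenzyme A, cross into mitochondria through the carnitine shuttle and are broken down by beta-oxidation. Malonyl-CoA inhibits the shuttle, and pyruvate dehydrogenase kinases limit the entry of pyruvate into the citric acid cycle.

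With 1 library per diet there is no replicate and no test between diets. Every comparison describes these 2 libraries. The normal-diet list held 23456 usable peaks and the deficient-diet list 37661. The deficient-diet library had 2.03 times the genome-wide background, at 5.38 fragments per position against 2.65. Heights are given below as the summit pileup, which counts the fragments over it, and as its multiple of the genome-wide background of the same library. The lowest multiple that a peak on genome-wide background reached was 4.15 (11 fragments) for normal-diet peaks and 2.97 (16 fragments) for deficient-diet peaks. A deficient-diet peak below 4.15 times its background was thus lower than any such peak of the normal-diet list.

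Both lists covered most of the 45 genes, and by a little more than they covered genes at large. A normal-diet peak lay at 27 genes (60.0%), against 50.4% of all protein-coding genes. A deficient-diet peak lay at 31 genes (68.9%), against 60.2%. Both lists had a peak at 21 genes (46.7%, background 41.1%), and neither had one at 8 (17.8%, background 30.6%). The 8 genes without a peak were Tfam, Hif1a, Hadhb, Gapdh, Pgk1, Ogdh, Sdha and Ckmt2. Peaks of the 2 lists that overlapped by at least 1 bp, called pairs here, were found at 13 genes (28.9%), against 22.8% of protein-coding genes.

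Which list covers more of the genes turned with the height required. An alternative added after the data were seen held both lists to the floor of 4.15 times background. The deficient-diet list then had peaks at 22 genes (background 40.5%) and the normal-diet list at 27 as before. This floor is the lowest height of the normal-diet list, so by construction it could remove deficient-diet peaks only. With the deficient-diet list shortened to the length of the other by -log10 q, it had peaks at 30 genes, against a background of 47.7%. The order against genes at large also turned with the peaks kept. When only peaks on genome-wide background were counted, 14 of 45 members had a normal-diet peak (background 33.7%) and 3 of 45 a pair (background 11%), both shares below the background, while 27 of 45 had a deficient-diet peak (background 44.7%).

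**Figure D1:**
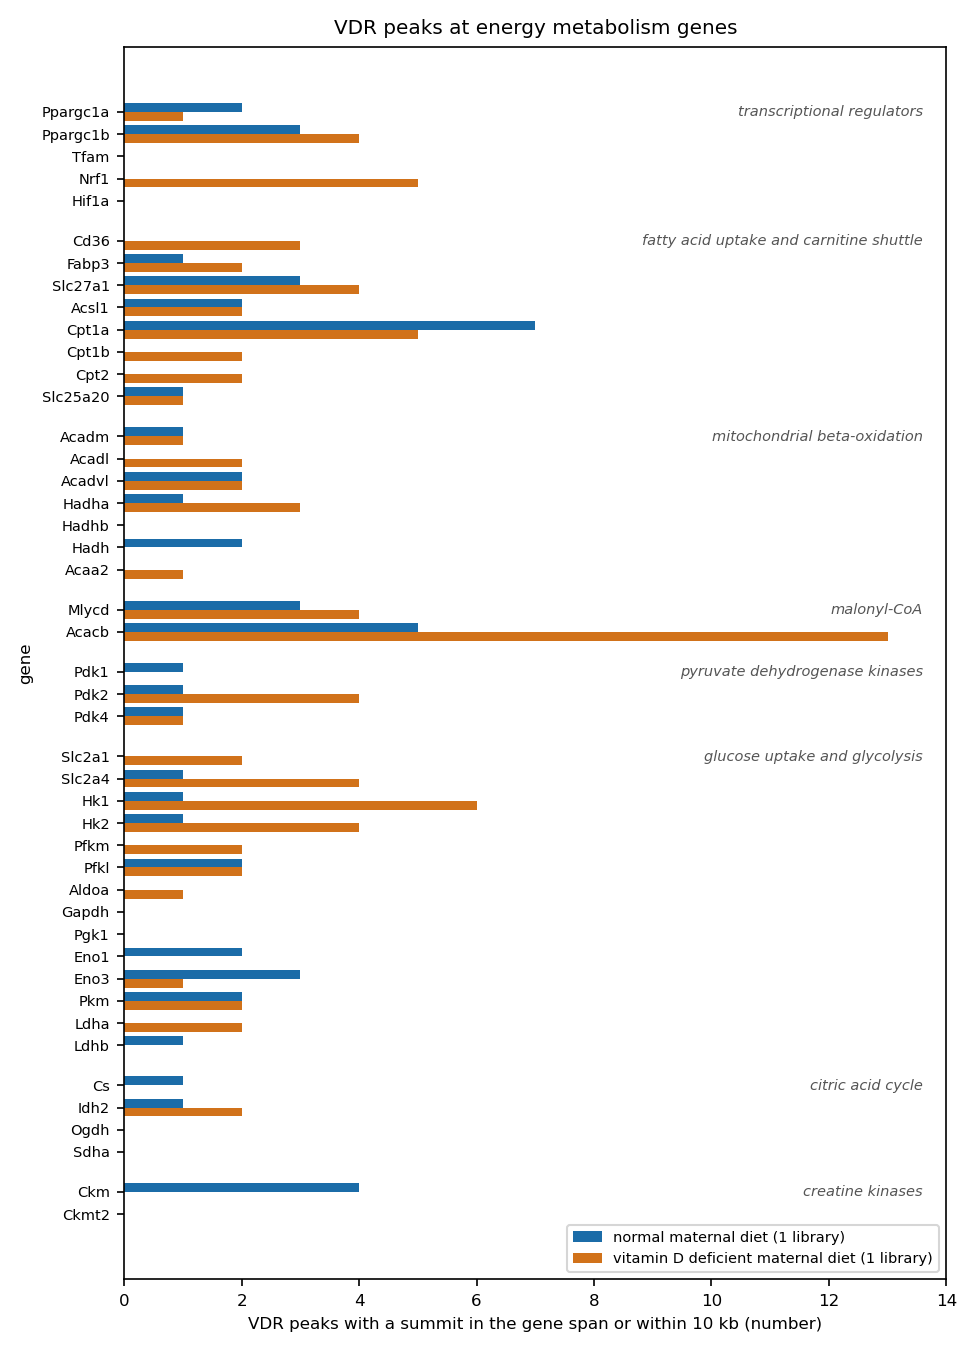
Number of VDR peaks (x axis) with a summit in the span of each of the 45 genes or within 10 kb of it (y axis), grouped by role, for the normal-diet library (blue) and the deficient-diet library (orange). Acacb with 5 and 13 peaks and Cpt1a with 7 and 5 hold the most, and 8 genes have no bar.

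Long genes hold more peaks by their length, and the 45 spans had a median of 23.8 kb against 17.3 kb for protein-coding genes. Counts were therefore also set beside genes of like span. Of 7 members under 10 kb, 4 had a normal-diet peak (background 40.0%) and 6 a deficient-diet peak (background 48.9%). Of 22 members from 10 to 30 kb, 13 had a normal-diet peak (background 50.5%) and 13 a deficient-diet peak (background 60.3%), not all of them the same genes, since 9 had both. Of 10 members from 30 to 100 kb, 6 had a normal-diet peak (background 55.1%) and 6 a deficient-diet peak (background 66.7%), and 4 had both. Of 6 members of 100 kb and over, 4 had a normal-diet peak (background 73.5%) and 6 a deficient-diet peak (background 82.1%). Pairs lay at 3, 5, 3 and 2 members of these classes, where backgrounds were 17.8%, 20.8%, 24.3% and 40.7%. In the normal-diet list the members were above the background from 10 to 30 kb (59.1%), and near or under it from 30 kb up. In the deficient-diet list they were near or under it from 10 to 100 kb, and above it at 100 kb and over. The members furthest above the background in both lists were the 7 short genes.

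**Figure D2:**
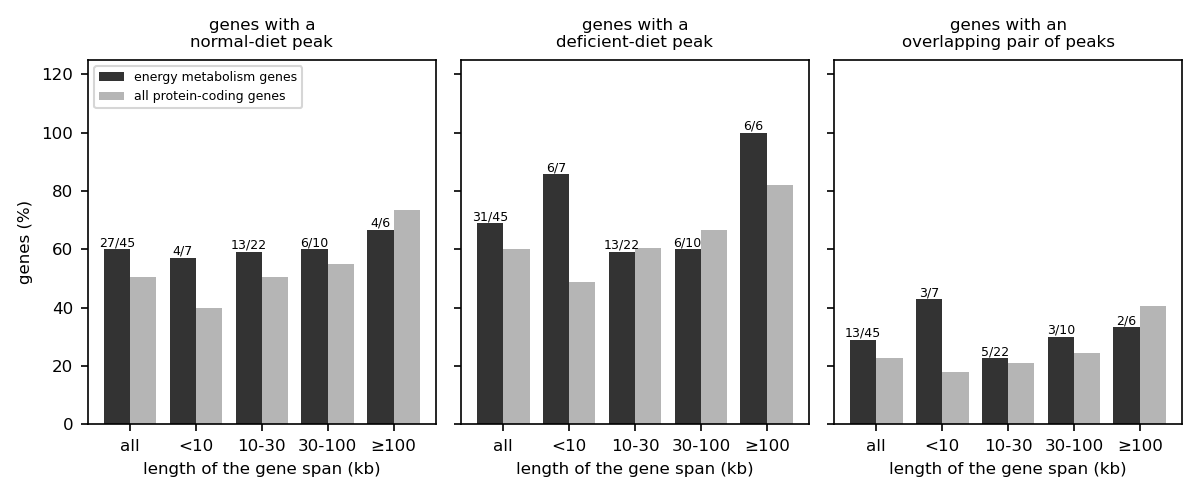
Share of genes (y axis, %) with a normal-diet peak, a deficient-diet peak or an overlapping pair, by length of the gene span (x axis, kb), for the 45 energy metabolism genes (black, with counts) and all protein-coding genes (grey). The gap is widest for the 7 members under 10 kb, 6 of which have a deficient-diet peak.

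In total 55 normal-diet and 90 deficient-diet peaks lay at the 45 genes, a density of 1.79 and 2.93 peaks per 100 kb of span and window. Over all protein-coding genes the densities were 1.50 and 2.32. The common height floor left 42 deficient-diet peaks, and lists of equal length 58, against the 55 of the normal diet. The members' peaks were of ordinary height for their lists. Their median pileup was 16 fragments (normal) and 22 (deficient), the same as in the whole lists. The authors' -log10 q, the peak's significance after adjustment for multiple testing, reached 5 in 14 normal-diet peaks (25.5%) and 19 deficient-diet peaks (21.1%), against 33.5% and 22.5% of peaks near any protein-coding gene. The best member peak ranked 677th by -log10 q in its list for the normal diet, and 601st for the deficient one. A partner in the other list was found for 17 normal-diet peaks (30.9%) and 17 deficient-diet peaks (18.9%), against 30.5% and 19.4% near any protein-coding gene, so these shares were near those of genes at large. The background around the normal-diet member peaks was more often raised. It was at least 1.1 times the genome-wide value in 27 of 55 (49.1%), against 38.6% near any protein-coding gene, and in 24 of 90 deficient-diet peaks (26.7%), against 23.6%. These shares are given without a test.

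Most summits lay well inside the genes. In the normal-diet list 33 of 55 (60.0%, exact 95% binomial interval 45.9 to 73.0%) lay inside a span more than 1 kb from its ends, against 47.9% over all protein-coding genes. In the deficient-diet list it was 58 of 90 (64.4%, 53.7 to 74.3%), against 52.7%. Within 1 kb of an end lay 9 (16.4%, 7.77 to 28.8%) and 11 (12.2%, 6.26 to 20.8%), against 20.3% and 16.1%. From 1 to 10 kb outside lay 13 (23.6%, 13.2 to 37.0%) and 21 (23.3%, 15.1 to 33.4%), against 31.8% and 31.2%. These intervals cover counting error only. They treat peaks as independent, though peaks share genes, and Acacb alone held 13 of the 90 deficient-diet peaks. The comparison shares were not taken by span, and the members had the longer median span (23.8 against 17.3 kb). By gene, a normal-diet summit lay within 1 kb of an end at 9 of 45 members, against 18.8% of protein-coding genes, and a deficient-diet summit at 11 of 45, against 22.1%. Under the common height floor the deficient-diet count was 4, with a background of 11.4%. Many windows were shared, since 22 normal-diet and 43 deficient-diet peaks also lay within 10 kb of another protein-coding gene.

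At start sites, all summits lay on the transcribed side. Start sites and strand were listed for 41 of the 45 genes in the RefSeq promoter table of GRCm38.p6. A summit lay within 1 kb of one at 4 genes in the normal-diet list, from 195 to 597 bp downstream, where 17.3% of protein-coding genes had one. It was so at 11 genes in the deficient-diet list, from 70 to 586 bp downstream, with a background of 19.0%. Over all protein-coding genes, 69.5% of such normal-diet summits and 70.5% of such deficient-diet summits were downstream. Where a gene has several listed start sites, the distance is to the nearest. From another listed start, the summits of Pkm, Ldha and Pdk2 were upstream.

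**Figure D3:**
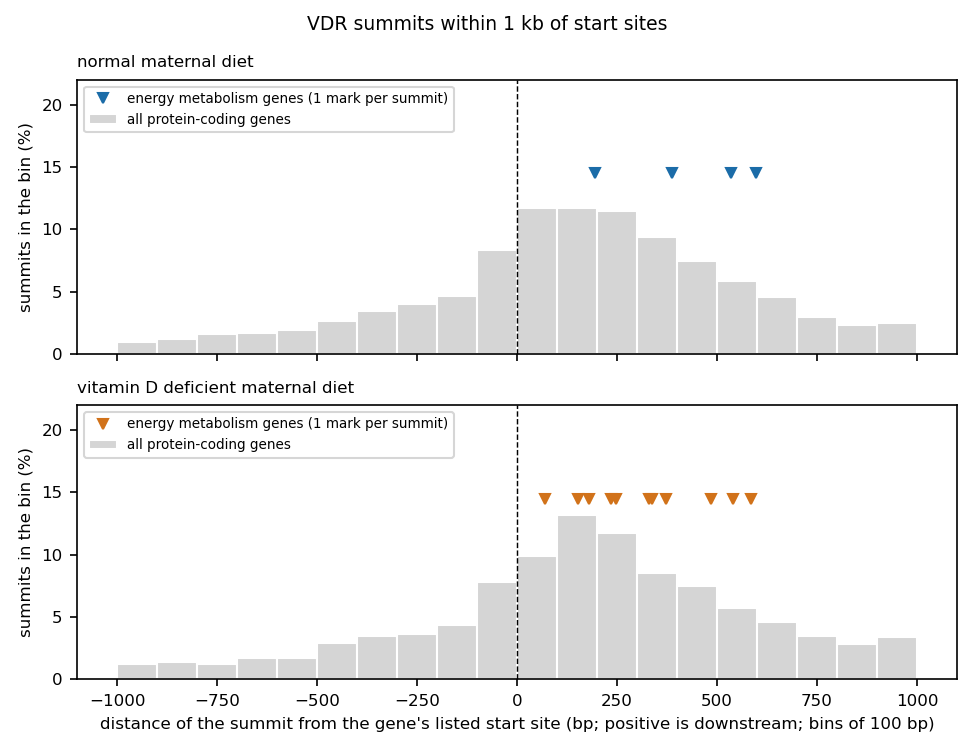
Distance of VDR summits from the listed start site of their gene (x axis, bp, positive downstream), as the share of summits per 100-bp bin over all protein-coding genes (grey bars, y axis, %), with a mark for each summit at the energy metabolism genes (blue, normal diet; orange, deficient diet; their height on the y axis carries no value). All 4 normal-diet and 11 deficient-diet marks are to the right of the start site.

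Few peaks reached the promoter windows themselves, which run from 250 bases before to 50 after a start site. No normal-diet peak overlapped a window of the 41 genes, where 7.65% of protein-coding genes had one. A deficient-diet peak did at 2 genes, Acadvl and Pdk2, with a background of 7.69%. Their windows, from RefSeq on GRCm38.p6, are shown 5′ to 3′ on the gene's strand, with capitals for the bases under the peak. Acadvl has its window at chr11:70015379-70015678 on the minus strand and Pdk2 at chr11:95041322-95041621 on the minus strand.
Acadvl: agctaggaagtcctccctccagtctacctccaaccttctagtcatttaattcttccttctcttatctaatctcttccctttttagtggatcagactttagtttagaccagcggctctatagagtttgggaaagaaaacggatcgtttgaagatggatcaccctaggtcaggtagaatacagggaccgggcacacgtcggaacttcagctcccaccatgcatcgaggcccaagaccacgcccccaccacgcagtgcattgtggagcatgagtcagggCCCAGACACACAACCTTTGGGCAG
Pdk2: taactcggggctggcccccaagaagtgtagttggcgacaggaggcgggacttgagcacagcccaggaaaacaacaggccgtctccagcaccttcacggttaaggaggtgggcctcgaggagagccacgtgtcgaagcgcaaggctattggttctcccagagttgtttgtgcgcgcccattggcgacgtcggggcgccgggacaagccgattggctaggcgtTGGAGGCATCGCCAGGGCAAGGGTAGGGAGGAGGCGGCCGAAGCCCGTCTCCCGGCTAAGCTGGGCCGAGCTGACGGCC
The overlap was 24 bases at Acadvl and 79 at Pdk2, in both at the 3′ end of the window.

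The windows were searched on both strands for the VDR half-site in 4 forms, namely AGGTCA, its close form GGGTCA, the form written AGTTCA and the form written GGTTCA. A half-site was present in 23 of the 62 windows of the members (37.1%), against 41.2% of 21044 windows of protein-coding genes. A pair of half-sites in the same direction with 3 bases between them, named DR3, or with 1 base, named DR1, occurred in none of the 62 windows, and in 0.0380% and 0.185% of windows of protein-coding genes. DR1 is the element bound by the fatty acid sensing PPAR receptors. The Pdk4, Ldhb and Cpt1a windows are shown as examples with a summit within 1 kb and a half-site, which is in capitals. Cpt2, Aldoa, Acadvl and, at another listed start, Pkm had both too. Acadl, Hk2, Ldha, Acsl1, Cs and Pdk2 had such a summit and no half-site. Pdk4 has both lists' peaks there, Ldhb the highest normal-diet pileup of any start site here, and Cpt1a the most peaks in the carnitine shuttle. They lie at chr6:5496229-5496528 on the minus strand, chr6:142507908-142508207 on the minus strand and chr19:3323051-3323350 on the plus strand.
Pdk4: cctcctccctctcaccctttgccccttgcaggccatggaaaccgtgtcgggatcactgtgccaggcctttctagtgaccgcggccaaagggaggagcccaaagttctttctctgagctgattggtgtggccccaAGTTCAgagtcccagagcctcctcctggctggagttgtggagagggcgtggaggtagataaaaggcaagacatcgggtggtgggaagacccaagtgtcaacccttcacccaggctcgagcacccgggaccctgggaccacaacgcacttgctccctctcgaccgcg
Ldhb: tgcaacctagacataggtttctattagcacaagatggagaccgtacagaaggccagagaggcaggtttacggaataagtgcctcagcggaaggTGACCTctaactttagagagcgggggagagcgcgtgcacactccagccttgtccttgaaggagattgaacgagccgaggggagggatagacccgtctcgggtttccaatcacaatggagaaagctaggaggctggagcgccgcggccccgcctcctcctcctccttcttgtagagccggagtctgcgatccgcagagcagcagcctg
Cpt1a: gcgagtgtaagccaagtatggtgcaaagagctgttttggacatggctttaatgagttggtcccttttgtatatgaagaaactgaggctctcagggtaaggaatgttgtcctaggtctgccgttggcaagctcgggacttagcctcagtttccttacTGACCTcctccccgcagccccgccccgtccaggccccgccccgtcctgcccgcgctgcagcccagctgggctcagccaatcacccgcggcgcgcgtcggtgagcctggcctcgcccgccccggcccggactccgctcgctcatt
Pdk4 has AGTTCA, and the other two have AGGTCA. The peaks end outside these windows, at Pdk4 27 and 60 bases short of it, at Ldhb 297 and at Cpt1a 42, so the half-sites shown are not under a peak. Promoter windows of Ppargc1b, Cpt1b, Acaa2 and Slc2a4 were not used here.

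Among the 5 transcriptional regulators, 2 had normal-diet (background 50.4%) and 3 deficient-diet peaks (background 60.2%), and 1 had a pair (background 22.8%). The backgrounds given with this and the other role groups are shares over all protein-coding genes. Ppargc1b, a coactivator of genes for mitochondrial oxidation, had 3 normal-diet and 4 deficient-diet peaks. Its pair inside the gene, at chr18:61307625-61307869 and chr18:61307643-61307826, had pileups of 16 and 19 fragments. Stronger peaks nearby did not overlap. The normal-diet one at chr18:61322990-61323312 had a pileup of 22 and a -log10 q of 8.56, and the deficient-diet one at chr18:61320509-61320764 had 31 and 8.83, with summits 2586 bp apart. These are the third strongest normal-diet and the second strongest deficient-diet peak of the members.

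Ppargc1a, the related coactivator that drives mitochondrial biogenesis, has the longest span of the members, 661.6 kb, yet held only 2 normal-diet peaks and 1 deficient-diet peak. Of 351 protein-coding genes of 400 kb and over, 21.7% held 3 peaks or fewer. Every Ppargc1a summit lay inside the span but upstream of the nearest listed start site. The distances were -103386 and -406018 bp (normal diet) and -314275 bp (deficient diet). The normal-diet peak at -103386 bp, chr5:51670955-51671184, had a pileup of 21, 7.92 times background. Its -log10 q of 8.67 was the second highest of the members. The deficient-diet summit nearest to this peak was 210889 bp away. Nrf1, a factor that activates nuclear genes of the respiratory chain, had no normal-diet peak and 5 deficient-diet peaks, with pileups from 20 to 26. The summits 7971 and 9420 bp past its 3′ end lay in the span of Mirc35hg. Among 2426 genes of 100 kb and over, 0.866% had no normal-diet and at least 5 deficient-diet peaks, a count looked up after the Nrf1 values were seen. Of the 5 peaks, 3 were below 4.15 times background. Tfam, which packages and transcribes mitochondrial DNA, had its nearest summits 106306 bp (normal diet) and 106440 bp (deficient diet) from the span. For Hif1a, the oxygen-regulated activator of glycolytic genes, the nearest summits were 17011 bp (normal diet) and 23664 bp (deficient diet) from the span.

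All 8 genes of fatty acid uptake and the carnitine shuttle had a deficient-diet peak (background 60.2%). A normal-diet peak lay at 5 (background 50.4%), and 6 pairs lay at 4 genes (background 22.8%). Fabp3, the fatty acid binding protein of heart muscle, had the strongest normal-diet member peak, at chr4:130316193-130316623. Its pileup was 22, 8.29 times background, with a -log10 q of 9.57. The overlapping deficient-diet peak had a pileup of 26, 4.83 times background, and a -log10 q of 4.81. The summits lay 854 and 957 bp beyond the 3′ end of Fabp3 and inside the span of the neighbouring Zcchc17. A further deficient-diet peak with a pileup of 18 lay 9027 bp upstream.

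Acsl1, which joins long-chain fatty acids to coenzyme A, had a pair near its start at chr8:46471500-46471721 and chr8:46471548-46471747. The summits were 597 and 586 bp downstream of the start site and 11 bp apart. The pileup was 20 in both libraries, which is 7.54 times the normal-diet background and 3.71 times the deficient-diet one. Slc27a1, a fatty acid transport protein, had 3 normal-diet and 4 deficient-diet peaks. Its pair had a pileup of 19 in each library, with summits 11 bp apart, and lay about 5 kb past the 3′ end, inside the span of Pgls. Another 2 summits inside Slc27a1, with pileups of 19 (normal diet) and 24 (deficient diet), were 780 bp apart without overlap.

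Cpt1a encodes the liver form of the enzyme that starts the carnitine shuttle, a form also expressed in fetal heart. It had 7 normal-diet and 5 deficient-diet peaks, with 3 pairs. Of 5071 genes from 30 to 100 kb, 1.56% had 7 or more normal-diet peaks and 1.99% had 3 or more pairs. These limits are the gene's own counts, and it was singled out for its many peaks, so the shares are no test. The pair upstream, at chr19:3318303-3318658 and chr19:3318225-3318632, had the highest pileup of any member peak in both libraries, 25 and 46 fragments. These were 9.42 and 8.54 times background, and the local background there was itself 1.94 and 2.16 times the genome-wide value. Counted from the listed start site, the summits lay at -4850 and -4808 bp. The other pairs, 1 inside the gene and 1 past its 3′ end in Tesmin, had pileups of 17 and 20, and of 16 and 21. A deficient-diet peak with a pileup of 23 lay 484 bp downstream of the start site, and the nearest normal-diet summit, 1307 bp from it, had a pileup of 15.

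Cpt1b, the muscle form of the same enzyme, had 2 deficient-diet peaks, with pileups of 25 and 23, and no normal-diet peak. The first lay 6019 bp outside the span, in Syce3. Cpt2, which releases the fatty acid from carnitine inside the mitochondrion, had 2 deficient-diet peaks, of 21 and 19 fragments. The latter lay 180 bp downstream of its start site, at 3.53 times background. Cd36, a fatty acid translocase of the plasma membrane, had 3 deficient-diet peaks with pileups from 22 to 27, and its nearest normal-diet summit was 172871 bp away. Slc25a20, the carnitine-acylcarnitine carrier, had 1 peak in each list, of 18 and 21 fragments, 10581 bp apart. At these genes, 4 of 8 deficient-diet peaks were below 4.15 times background.

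**Figure D4:**
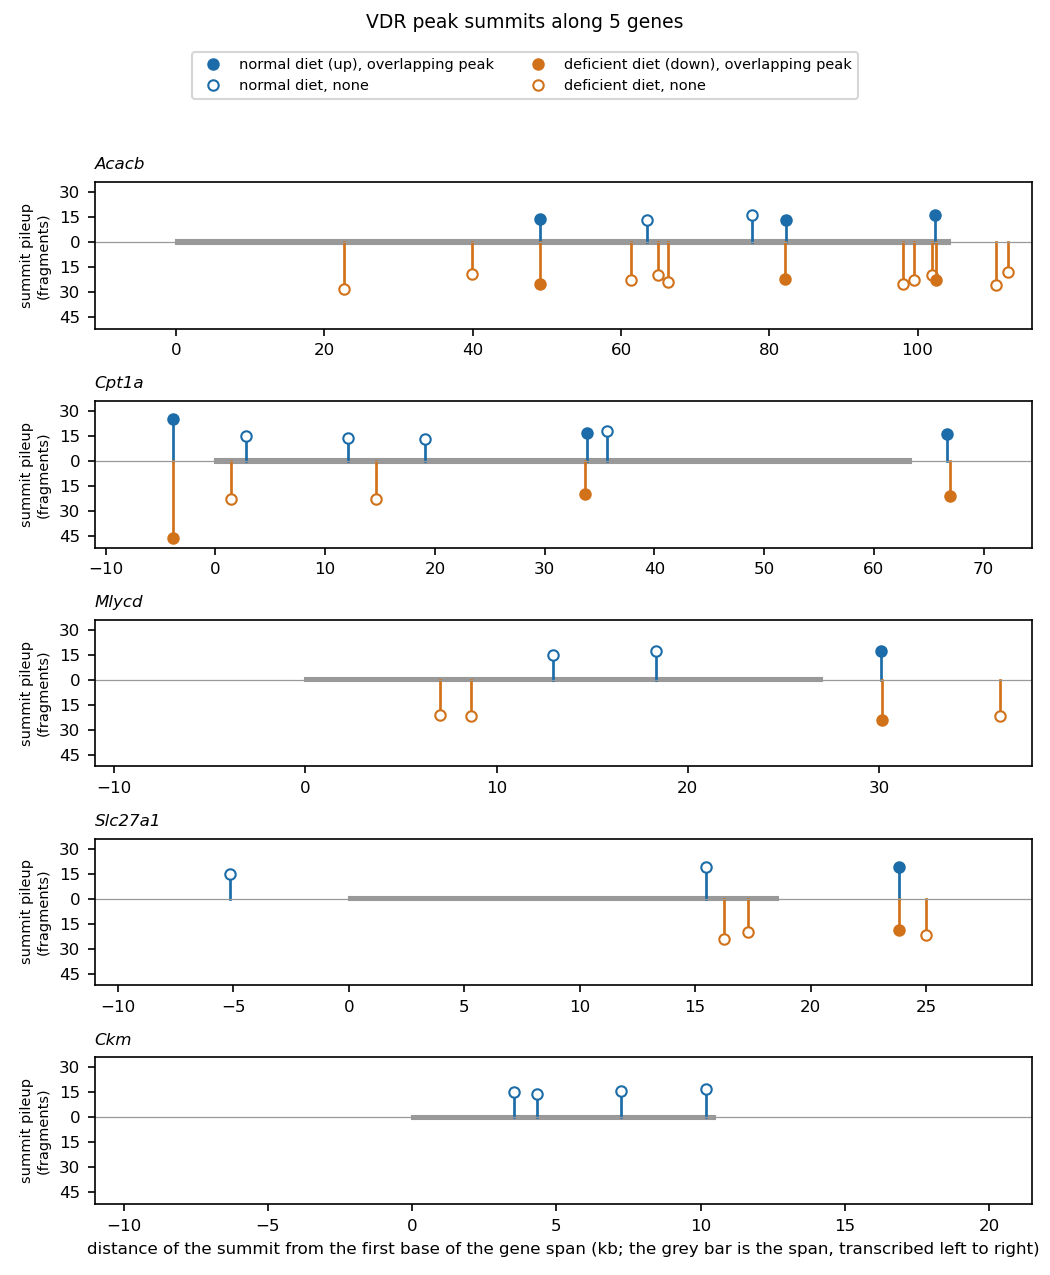
Summits along 5 genes, with pileup in fragments on the y axis (normal diet upward, deficient diet downward) and distance from the first base of the span on the x axis (kb, grey bar for the span). Filled circles have an overlapping peak in the other list; Acacb and Cpt1a have 3 such pairs each, and Ckm has 4 normal-diet summits and no deficient-diet summit.

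Of the 7 genes of beta-oxidation, 4 had a normal-diet (background 50.4%) and 5 a deficient-diet peak (background 60.2%), and 1 had a pair (background 22.8%). That gene was Hadha, the alpha subunit of the trifunctional protein, with peaks of 17 and 26 fragments at chr5:30135767-30135960 and chr5:30135715-30135893 inside the gene. Hadha also had a deficient-diet peak of 21 fragments within 1 kb of its 3′ end. Hadhb, the beta subunit, adjoins it head to head and had no peak in either list, with nearest summits at 19450 and 19502 bp. Acadvl, the very-long-chain acyl-CoA dehydrogenase, had a deficient-diet peak of 25 fragments whose summit lay 235 bp downstream of its start site, the peak that reaches the promoter window printed above. Its normal-diet peaks, of 17 and 15 fragments, lay past the 3′ end in Dvl2. Acadl, the long-chain enzyme, had 2 deficient-diet peaks, of which the weaker, 20 fragments with a -log10 q of 2.57, lay 330 bp downstream of its start site.

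Acadm, the medium-chain dehydrogenase, had a normal-diet peak of 19 fragments inside the gene and a deficient-diet peak of 22 fragments 9612 bp outside it, in Rabggtb. Hadh, which acts on short-chain hydroxyacyl-CoA, had 2 normal-diet peaks, of 17 fragments each, and none in the deficient-diet list. One lay 955 bp inside its 3′ end and the other 6012 bp upstream. Acaa2, the last thiolase step, had 1 deficient-diet peak of 23 fragments.

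Both enzymes that set malonyl-CoA had peaks in both lists (background 41.1%, and 66.2% for spans of 100 kb and over, such as Acacb). Both also had a pair (background 22.8%, and 40.7% for spans of 100 kb and over), with 4 pairs in all. Acacb, which makes malonyl-CoA at the mitochondrial surface, held the most peaks of the members, with 5 from the normal and 13 from the deficient diet. Among 2426 genes of 100 kb and over, 4.16% had 13 or more deficient-diet peaks and 6.39% had 3 or more pairs. Here too the limits are the counts of Acacb itself, picked for holding the most peaks, so the shares are no test. Its 3 pairs had normal-diet pileups of 14, 13 and 16 and deficient-diet pileups of 25, 22 and 23. The strongest peak there, at chr5:114168817-114169002 in the deficient-diet list, had a pileup of 28 and a -log10 q of 7.59, the third highest of the members in that list. It lay 3421 bp downstream of the listed start site, and the nearest normal-diet summit was 26446 bp away. Of the 13 deficient-diet summits, 2 lay past the 3′ end in Foxn4. Mlycd, which breaks malonyl-CoA down, had 3 normal-diet and 4 deficient-diet peaks. Its pair, of 17 and 24 fragments at chr8:119424785-119425027 and chr8:119424708-119425128, lay about 3 kb past the 3′ end.

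All 3 pyruvate dehydrogenase kinases had a normal-diet peak (background 50.4%) and 2 a deficient-diet peak (background 60.2%). Pdk4, the isoform induced by fasting and fatty acids, was 1 of 2 members with a pair at the start site, the other being Acsl1. Its peaks were at chr6:5495957-5496201 and chr6:5495939-5496168, with summits 195 and 246 bp downstream. The pileup was 19 in the normal-diet library, 7.16 times background, and 24 in the deficient-diet library, 4.46 times background. Both peaks lay on genome-wide background and both passed a -log10 q of 5, at 6.98 and 5.29. Pdk2, the isoform widely expressed in heart, had 1 normal-diet and 4 deficient-diet peaks. Its pair lay about 6 kb past the 3′ end, in Samd14, with pileups of 20 and 25. The deficient-diet peak over its promoter window had 20 fragments, 3.71 times background. Pdk1, a target of hypoxia signalling, had 1 normal-diet peak, of 14 fragments and a -log10 q of 2.43.

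Among 14 genes of glucose uptake and glycolysis, 8 had a normal-diet (background 50.4%) and 10 a deficient-diet peak (background 60.2%), with pairs at 3 (background 22.8%). Slc2a4, the insulin-regulated glucose transporter, had 1 normal-diet and 4 deficient-diet peaks. The pair inside the gene, at chr11:69945397-69945628 and chr11:69945495-69945677, had 12 and 23 fragments, 4.52 and 4.27 times background. These are the closest heights of any pair here. Another deficient-diet peak, of 22 fragments, lay 669 bp from an end of the span. Slc2a1, the basal transporter of fetal heart, had 2 deficient-diet peaks, of 21 and 20 fragments, near its 3′ end, both below 4.15 times background.

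Hk1 and Hk2, the hexokinases that trap glucose, had 1 normal-diet peak each, of 12 and 14 fragments. Hk1 had 6 deficient-diet peaks, spread over the gene with pileups from 20 to 25, and 18.4% of genes of 100 kb and over had as many or more. Hk2 had 4, with pileups from 23 to 28. The Hk2 peak at chr6:82773827-82774026 lay 539 bp downstream of the start site, with 27 fragments and a -log10 q of 5.29. The nearest normal-diet summit was 38987 bp away.

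Pfkm, the muscle phosphofructokinase, had 2 deficient-diet peaks, of 25 and 23 fragments. Pfkl, the liver form, had 2 peaks in each list and no pair, and 1 of its normal-diet peaks, of 15 fragments, lay 359 bp past the 3′ end. Aldoa, an aldolase, had 1 deficient-diet peak of 18 fragments, 373 bp downstream of a start site. Gapdh and Pgk1, of the following steps, had none, with nearest summits 16386 bp (normal diet) and 62385 bp (deficient diet) away, respectively. Eno3, the muscle enolase, had 3 normal-diet peaks and 1 deficient-diet peak. Its pair inside the gene had 14 and 21 fragments, with summits 300 bp apart. The other normal-diet summits of Eno3 lay 2662 and 6992 bp past its 3′ end, in Spag7 and Camta2. Eno1, the ubiquitous enolase, had 2 normal-diet peaks, both of 15 fragments. Pkm, pyruvate kinase, had 2 peaks in each list and a pair at chr9:59675717-59675897 and chr9:59675517-59675818, with 15 and 27 fragments. A further Pkm peak in the deficient-diet list, of 19 fragments, lay 153 bp downstream of the first listed start site.

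The 2 lactate dehydrogenase genes had start-site peaks in opposite lists. Among members with a summit near a listed start site, only Acsl1 and Pdk4 had one in both lists, so 1 list alone was usual. Ldhb, the subunit that predominates in heart, had 1 normal-diet peak, at chr6:142507419-142507610, 388 bp downstream of its start site. Its pileup was 24, 9.05 times background, with a -log10 q of 8.36. The local background was 1.40 times the genome-wide value. The nearest deficient-diet summit was 62764 bp away. Ldha, the subunit that predominates in skeletal muscle and under hypoxia, had 2 deficient-diet peaks and no normal-diet peak. The peak 338 bp downstream of a start site, at chr7:46846027-46846219, had 27 fragments, 5.01 times background, and a -log10 q of 6.37. The nearest normal-diet summit was 73793 bp away. With 1 library per diet this difference between Ldhb and Ldha has no replicate check, and its cause was not tested.

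Of the citric acid cycle, Cs, the citrate synthase, had 1 normal-diet peak of 14 fragments, 535 bp downstream of its start site. Idh2, the mitochondrial NADP-dependent isocitrate dehydrogenase, had 1 normal-diet peak of 15 fragments near its 3′ end and 2 deficient-diet peaks of 22 fragments each, with no overlap. For Ogdh and Sdha, of the following steps, the nearest summits were 24067 bp (deficient diet) and 13210 bp (normal diet) away. Ckm, the muscle creatine kinase, had 4 normal-diet peaks and no deficient-diet peak. Their pileups were 15, 14, 16 and 17, which is 5.28 to 6.41 times background, and all lay within the 10.5 kb of the gene. The peaks of 16 and 17 fragments also lay inside the span of A930016O22Rik. Of 6390 genes from 10 to 30 kb, 9 (0.141%) had at least 4 normal-diet and no deficient-diet peak, a count looked up after the Ckm values were seen. The nearest deficient-diet summit was 16642 bp from the span. Ckmt2, the mitochondrial form of sarcomeric creatine kinase, had no peak in either list.

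Across the 17 pairs, the normal-diet peak was the higher each time in multiples of the genome-wide background of its own library. In 7 of them the deficient-diet peak was below 4.15, the lowest height in the normal-diet list, so there the order was fixed in advance. The multiples ran from 4.52 to 9.42 (normal) and from 3.53 to 8.54 (deficient), and their ratio had a median of 1.44 and a range of 1.06 to 2.03. The 8211 pairs of the whole lists had the same median, 1.44, with 1.14 and 1.83 at the 10th and 90th percentiles, and 97.8% had a ratio above 1. By this measure, the order at these genes was therefore that of the libraries in general. By the deposited fold over local background, the normal-diet peak was the lower at Slc2a4 (3.25 against 3.76). It was also the lower at the last Acacb pair (2.77 against 3.08), and the higher at the other pairs. Summits of 8 of the 17 pairs were within 100 bp of each other.

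**Figure D5:**
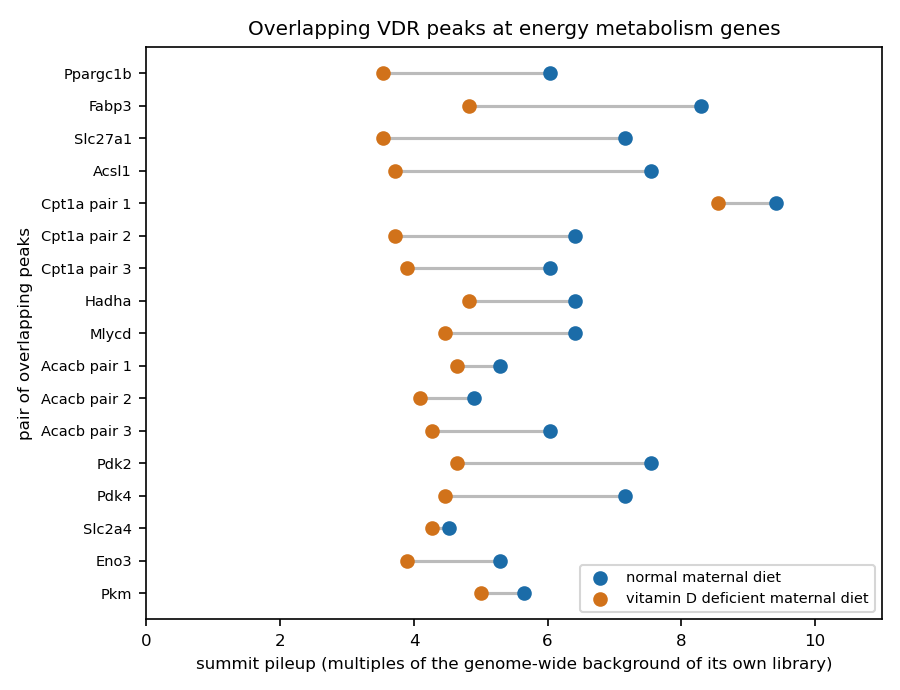
Summit pileup of the 17 overlapping pairs (y axis) as a multiple of the genome-wide background of each library (x axis), normal diet in blue and deficient diet in orange. The normal-diet point is to the right in all 17, as in 97.8% of pairs over the whole lists. In 7 of the 17 the deficient-diet peak is below 4.15, the lowest height in the normal-diet list, which fixes this order.

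Peaks without a partner made up 38 of the normal-diet and 73 of the deficient-diet peaks. Of the 73, 41 (56.2%) were lower than 4.15 times background, against 57.2% of unpaired peaks in the whole deficient-diet list. Among the 17 pairs, the deficient-diet peak was also below 4.15 in 7. There the overlapping normal-diet peak was 4.90 to 7.54 times the genome-wide background of its library. Whether the height bears on the missing partners was not tested. The unpaired peaks below 4.15 include those near the start sites of Cpt2, Acadl, Pdk2, Aldoa and Pkm. The deficient-diet start-site peaks at Cpt1a, Acadvl, Hk2 and Ldha were above 4.15, at 4.27, 4.64, 5.01 and 5.01 times background. Of the unpaired peaks, 1 normal-diet and 3 deficient-diet peaks had a summit of the other list within 1 kb.

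Related genes outside the 45 had a peak in similar shares, but a pair in a lower share than the 28.9% of the 45. In 5 lists of 110 further genes, 65 (59.1%) had a normal-diet peak, 75 (68.2%) a deficient-diet peak and 23 (20.9%) a pair, against 50.4%, 60.2% and 22.8% of protein-coding genes. Among 30 genes of fatty acid uptake and oxidation, 14 had a normal-diet and 24 a deficient-diet peak. Pairs were at Acads, Acsl5, Eci2, Acot2, Acaca and Pnpla2, with the highest pileups at Eci2, an enoyl-CoA isomerase, of 21 and 31. Among 29 genes of glycolysis and pyruvate handling it was 16 and 17, with pairs at Hk3, Pfkfb4 and Eno2. Among 23 genes of the citric acid cycle and creatine it was 17 and 15, with pairs at Idh3b, Suclg2, Sucla2, Sdhd and Mdh1.

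The transcriptional partners had peaks at 13 and 14 of 20 genes (background 50.4% and 60.2%). Pairs were at 5 (background 22.8%), namely Ppard, Esrrb, Mlxip, Srebf1 and Prkag2. Of 8 partners of Hif1a, 5 had a normal-diet peak (background 50.4%), 5 a deficient-diet peak (background 60.2%) and 4 a pair (background 22.8%). Those with a pair were Epas1, Hif3a, Vhl and Egln1. The backgrounds were not taken by span, and the list is short. Egln1, the prolyl hydroxylase that marks Hif1a for degradation, had peaks of 22 and 26 fragments at chr8:124928451-124928702 and chr8:124928502-124928696, with -log10 q values of 9.04 and 5.94. Vhl, which then recognises Hif1a, had 14 and 20 fragments, 309 bp from an end of its span. Hif1a itself had no peak.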

How the data were processed

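VDR-bound DNA was measured in 2 samples, grouped by the tissue labels. The authors deposited 1 peak list per sample on mm10, per the file headers, and the submitters' processing notes name SAMtools and MACS2. The aligner, caller settings and control library are not given in the sources used here. Each peak has a deposited fold enrichment (a ratio over local background) and a deposited -log10 p-value and -log10 q-value. In the normal-diet list, end and score are joined by a point and were parted. 1 line without a start was left out.

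Summit pileup and background were solved for from each peak's deposited fold and p-value: fold was read as (pileup + 1)/(background + 1), and p as the upper Poisson tail beyond the pileup. The largest error in -log10 p was 0.000293. No header states this reading. The lowest background of a list was taken as genome-wide, and peaks within 1% of it as lying on it. Median pileups of 16 and 22 fragments set the precision.

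Spans came from RefSeq, GRCm38.p6. The background was all 21627 protein-coding genes of autosomes and X, also by span class, in place of random genes of matched span. No test between diets was possible. Assignment was tested on planted peaks. Python 3.11.15, pandas 2.3.3 and scipy 1.17.1 were used. Members and lists were chosen with earlier results of these data known. Every member is described. The rule for full values took members with a pair, with a summit within 1 kb of an end, with the 3 strongest peaks of a list, or with the most peaks. Peak sequences need a genome and were not analysed here. Alternatives covered the q threshold, equal list lengths, peaks on genome-wide background, windows, overlap and the gene background; a common height floor was added after the data were seen.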

Additional observations from a re-analysis of the deposited data

How the results depend on the processing

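Of 56 recomputed values, 28 stayed within 1.5 times of the count, or within the 95% interval of the share, and 28 moved. No paired analysis was possible because the design has a single library for either diet, and none could be left out. Order below is normal-diet then deficient-diet. Keeping only peaks with -log10 q from 5 upward left fewer by construction. A peak then lay at 12 and 13 genes (background 24.8% and 25.3%), both at 5 (11.2%) and a pair at 3 (4.0%). A summit lay within 1 kb of an end at 5 and 2 genes (6.77% and 5.46%), and 14 and 19 peaks remained. On genome-wide background alone, 14 genes had a normal-diet peak (background 33.7%), 12 both (23.7%) and 3 a pair (11%). The first and last of these fell below genes at large, and the cause was not tested. Near an end there were 4 and 6 genes (9.01% and 12.2%), and 19 and 48 peaks remained. Lists of equal length gave 58 deficient-diet peaks and 6 genes near an end (background 14.4%). With a common height floor of 4.15, which could remove deficient-diet peaks only, these were 42 and 4 (background 11.4%). The deficient-diet counts then no longer exceeded the 55 and 9 of the normal diet. A window of 50 kb gave 35 genes with both (background 69.9%), 24 with a pair (43.6%), and 121 and 219 peaks. Taking 3 kb around ends gave 16 and 21 genes (28.9% and 35.2%). Summits within 100 bp left 8 genes with a pair. Against all gene spans the backgrounds were 35.6% and 44.9%. The lowest pileup called on genome-wide background was 11 fragments (normal) and 16 (deficient), under caller settings not given in the sources used here.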
